A study of Mus musculus with 6 samples.

Results

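Receptors, effectors and secreted antagonists of the Wnt pathway were followed in the atrioventricular canal of E15.5 mouse embryos with and without Scx. The members were taken by gene symbol from a list of 10, and 8 of them were analysed among the 18810 Ensembl identifiers measured. They were the coreceptors Lrp5 and Lrp6, the receptors Fzd1 and Fzd2, the effector Ctnnb1, and the antagonists Sfrp1, Frzb and Dkk3. The effectors Axin2 and Lef1 were also named in the list and are not analysed here. Each genotype was represented by 3 libraries, 1 per embryo, of C57BL/6 strain at embryonic day 15.5. The Scx-/- embryos are null for Scleraxis, a basic helix-loop-helix transcription factor of tendons and heart valves, and the Scx+/+ controls were wild-type littermates. The dissected regions held the mitral, tricuspid and aortic valves and were not sorted, so each value is an average over all cells of the dissection.

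Wnt proteins are secreted ligands that bind a Frizzled receptor together with the coreceptors Lrp5 or Lrp6 at the cell surface. In the canonical branch, this stops the destruction complex from degrading β-catenin, the product of Ctnnb1, which then enters the nucleus and activates target genes with TCF and LEF factors. β-catenin also links cadherins to the actin cytoskeleton at cell junctions. Secreted Frizzled-related proteins such as Sfrp1 and Frzb bind Wnt ligands outside the cell, and canonical Wnt signaling takes part in formation and remodeling of the endocardial cushions.

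Recovered sequencing depth ran from 46429975 to 68570999 reads per library. Across all genes limma called 731 of 18810 by the unadjusted p of 0.05 used throughout, and 0 once the p was adjusted. Of these calls 531 were higher and 200 lower, which became 281 and 365 with library medians set to 0. Whole-gene Scx ran from 18.6 to 82.9 RPKM in the Scx-/- libraries and from 26.0 to 58.3 RPKM in the controls, so these values do not check the genotype labels. The paper reports that the first exon of Scx was strongly decreased in the Scx-/- samples, a check made before sequencing. Scx-/- replicate 3 and Scx+/+ replicate 2 had the highest summed RPKM, at 1240390 and 2295481. The other 4 libraries had 820019 to 1034594. Only Scx+/+ replicate 2 was far from the rest, and both are called here the libraries that stood apart. The sum of 15 cardiomyocyte markers, in which Myl2 weighed most, was 31609 RPKM in Scx-/- replicate 3 and 35147 RPKM in Scx+/+ replicate 2. In the other 4 libraries it was 20036 to 27142 RPKM. Weighted equally on the log2 scale, the same markers were 0.34 above their mean in Scx+/+ replicate 2 but 0.08 in Scx-/- replicate 3, close to 0.07 in Scx-/- replicate 1. Valve mesenchyme was represented by all 13 of its markers, led by Postn at a mean of 254 RPKM, and Prrx2 was the 1 marker at the fill-in value for low genes in a library.

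RefSeq promoter windows on GRCm38.p6 were matched for Ctnnb1, Fzd1 and Frzb, an effector, a receptor and an antagonist. Lrp5, Lrp6, Fzd2, Sfrp1 and Dkk3 were not matched. The 250 bases before the annotated start are shown because basic helix-loop-helix proteins such as Scx bind the E-box CANNTG, which is its own reverse complement. Each is written 5′ to 3′ with E-box letters in capitals.
Ctnnb1, chr9:120933150-120933399, plus strand: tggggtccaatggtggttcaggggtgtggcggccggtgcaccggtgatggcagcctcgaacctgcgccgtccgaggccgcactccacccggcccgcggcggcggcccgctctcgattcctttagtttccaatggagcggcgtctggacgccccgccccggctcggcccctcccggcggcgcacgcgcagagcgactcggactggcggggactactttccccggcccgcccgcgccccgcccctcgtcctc
Fzd1, chr5:4758217-4758466, minus strand: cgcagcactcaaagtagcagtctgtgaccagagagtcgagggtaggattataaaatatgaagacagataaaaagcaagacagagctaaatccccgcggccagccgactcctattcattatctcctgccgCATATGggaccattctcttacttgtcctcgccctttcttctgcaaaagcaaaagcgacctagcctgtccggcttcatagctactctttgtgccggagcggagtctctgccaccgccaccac
Frzb, chr2:80447397-80447646, minus strand: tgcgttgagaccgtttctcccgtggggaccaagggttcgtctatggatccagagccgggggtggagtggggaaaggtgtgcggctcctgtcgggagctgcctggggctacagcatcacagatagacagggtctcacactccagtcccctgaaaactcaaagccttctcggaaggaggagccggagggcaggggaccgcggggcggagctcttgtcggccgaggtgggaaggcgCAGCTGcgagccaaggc
Frzb held the word CAGCTG, whose first base lay 17 bases before the start, and Fzd1 held CATATG, 121 bases before it. The Ctnnb1 window, the first of 2 listed for the gene, held no such word. Of 27018 windows of this length, 66.1% held at least 1 CANNTG, so the matches describe these letters and no binding. None of the 3 windows held CTTTGAA or CTTTGAT on either strand, nor CTTTGTA or else CTTTGTT, words recognized by TCF and LEF factors and held by 14.9% of all windows.

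Levels of the 8 genes were compared first, as RPKM, reads scaled to exon length and library depth, which can be set side by side between genes. Ctnnb1 was the most abundant, with a mean of 172 RPKM over the 6 libraries and a range from 150 to 191 RPKM. Dkk3, Sfrp1 and Lrp6 followed with means of 15.2, 14.9 and 14.3 RPKM, and their ranges overlapped, so that their order is not distinguished by these libraries. Fzd1 had a mean of 5.43 RPKM and Fzd2 a mean of 3.93 RPKM. Their ranges overlapped, but Fzd1 was above Fzd2 in 6 of 6 libraries. Frzb, at a mean of 1.25 RPKM, and Lrp5, at 0.908 RPKM, were the least abundant, and Frzb was above Lrp5 in 4 of 6 libraries. No value of the 8 genes was at the fill-in value.

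**Figure D1:**
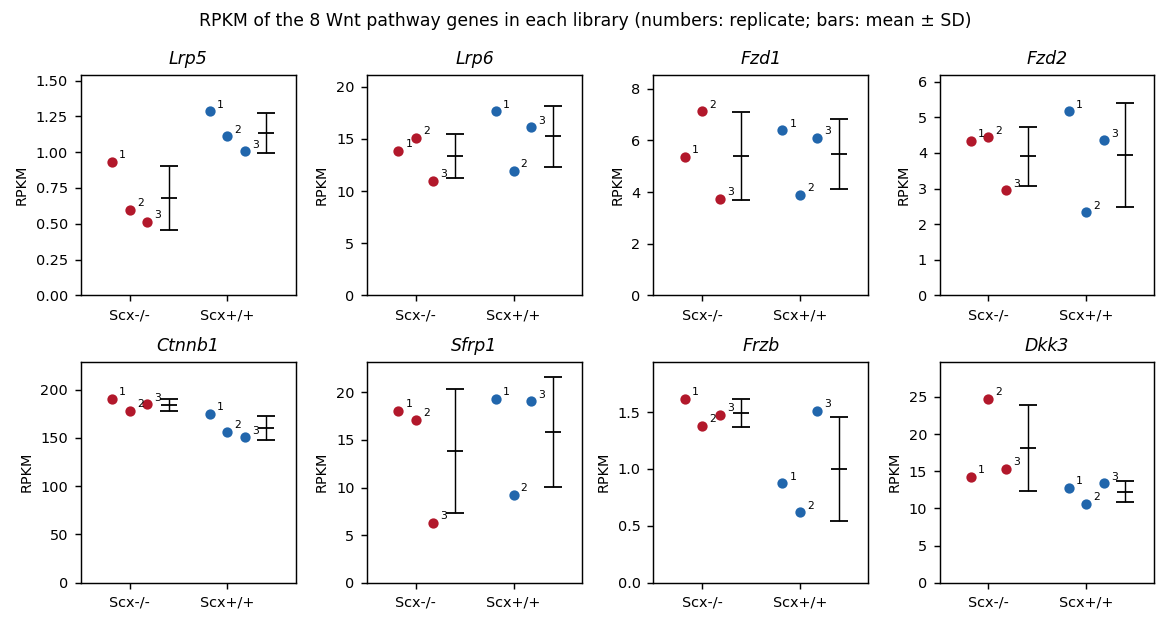
Level in RPKM (vertical axes, from 0 and different for each gene) of the 8 genes in the 3 Scx-/- (red) and 3 Scx+/+ (blue) libraries. Points are libraries with their replicate number and bars are mean ± SD (n = 3). Lrp5 was lower in every Scx-/- library than in any control, Ctnnb1 and Dkk3 were higher, and the other 5 genes overlapped.

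Between genotypes, 0 of the 8 genes were called in limma by the unadjusted p, where 3.89% of all genes were called, 2.82% higher and 1.06% lower. On the deposited scale Lrp5 was below all controls in every Scx-/- library, and Ctnnb1 and Dkk3 were above them. With library medians set to 0 Lrp5 alone of the 8 genes stayed without overlap, and with exon length and GC corrected it was Lrp5 and Lrp6, both lower. Over all genes as deposited, 2.31% were lower without overlap, 7.19% higher and 9.50% either. With library medians set to 0, 1011 genes were lower and 781 higher, 9.53% in all. With exon length and GC corrected, 864 were lower and 860 higher, 9.22% of 18695. The 8 genes had a median log2 fold change of 0.00 against 0.10 for all genes, with 4 of 8 above 0. As these are whole regions, fewer cells of a type and less RNA per cell cannot be told apart.

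The coreceptors Lrp5 and Lrp6 are paralogous single-pass membrane proteins whose phosphorylated tails recruit Axin. Lrp5 (ENSMUSG00000024913) lies on chromosome 19 of mm9 from 3584825 to 3686564, minus strand, with 5172 bases of exon. It was 0.934, 0.599 and 0.512 RPKM in Scx-/- replicates 1 to 3 and 1.28, 1.11 and 1.00 RPKM in the controls, from 158 to 399 reads per library. All 3 Scx-/- libraries were below all 3 controls, and the nearest values of the genotypes were Scx-/- replicate 1 and Scx+/+ replicate 3. On the log2(RPKM + 0.1) scale, where the pseudocount makes differences of low genes look smaller, the fold change was -0.69 (standard error 0.38, 95% interval -1.55 to 0.17, adjusted p = 0.967 by limma). Its unadjusted limma p of 0.103 fell to 0.0384 without Scx-/- replicate 1, to 0.0470 with the median of each library set to 0, and to 0.0376 without the intensity trend. It rose to 0.178 without Scx-/- replicate 3, to 0.175 without Scx+/+ replicate 1 and to 0.198 without both libraries that stood apart. Leaving out any 1 library kept the log2 fold change between -0.91 and -0.53.

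Lrp6 (ENSMUSG00000030201) lies on chromosome 6 from 134396494 to 134516983, minus strand. It was 13.9, 15.1 and 11.0 RPKM in Scx-/- replicates 1 to 3 and 17.6, 11.9 and 16.1 RPKM in the controls. The lowest values were those of the libraries that stood apart, and the genotypes overlapped. This gave a log2 fold change of -0.18 (standard error 0.21, 95% interval -0.66 to 0.30, adjusted p = 0.967 by limma). Within a library, Lrp6 exceeded Lrp5 by 10.8 to 25.2 times. The log2 ratio of Lrp5 to Lrp6 was -4.13 ± 0.35 (SD, n = 3) in Scx-/- and -3.62 ± 0.28 (SD, n = 3) in Scx+/+. The difference of -0.50 had p = 0.2 in the exact permutation test (two-sided), where 3 against 3 allows no p below 0.1. With a pseudocount of 1 it was -0.17 (exact permutation p = 0.6) and with 0.01 it was -0.58 (exact permutation p = 0.2). With exon length and GC corrected it was -0.50 (exact permutation p = 0.1).

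Fzd1 and Fzd2 encode seven-span Wnt receptors with a cysteine-rich ligand-binding domain, and each is annotated as a gene without introns. Fzd1 (ENSMUSG00000044674, chromosome 5 from 4753842 to 4758216, minus strand) was 5.35, 7.12 and 3.73 RPKM in Scx-/- replicates 1 to 3 and 6.39, 3.90 and 6.09 RPKM in the controls. Fzd2 (ENSMUSG00000050288, chromosome 11 from 102465745 to 102469372, plus strand) was 4.34, 4.44 and 2.95 RPKM in Scx-/- and 5.17, 2.33 and 4.35 RPKM in Scx+/+. For each gene the lowest library of each genotype was the one that stood apart, and the genotypes overlapped. The log2 fold changes were -0.03 for Fzd1 (95% interval -0.71 to 0.65, adjusted p = 0.996 by limma) and 0.04 for Fzd2 (95% interval -0.71 to 0.79, adjusted p = 0.996 by limma). Their signs turned with the library left out, and that of Fzd2 also with the scaling of the libraries, at -0.07 with library medians set to 0. The ratio of Fzd1 to Fzd2 lay between 1.23 and 1.67 in the 6 libraries, and its log2 difference between genotypes was -0.07 (exact permutation test, two-sided, p = 0.6).

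Together Fzd1 to Fzd9 summed to 29.1 ± 5.13 RPKM (SD, n = 3) in the null libraries, with the control sum at 29.1 ± 4.92 RPKM (SD, n = 3). Fzd1 made up 18.4% ± 3.77 (SD, n = 3) of the sum in Scx-/- and 18.6% ± 1.69 (SD, n = 3) in Scx+/+, and Fzd2 13.4% ± 0.73 and 13.3% ± 3.03. These shares differed between genotypes by less than their SD. Fzd4, a receptor best known from retinal vessels, held the largest mean share, 20.3% ± 3.90 (SD, n = 3) in Scx-/- and 27.1% ± 6.77 (SD, n = 3) in Scx+/+.

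Ctnnb1 (ENSMUSG00000006932), which encodes β-catenin, lies on chromosome 9 from 120838334 to 120869625, plus strand. It was 191, 178 and 185 RPKM in Scx-/- replicates 1 to 3 and 175, 156 and 150 RPKM in the controls, from 36978 to 60871 reads per library. Every Scx-/- library was above every control by a small margin, and the genotypes overlapped with library medians set to 0 or with exon length and GC corrected. The corresponding log2 fold change was 0.20 (standard error 0.16, 95% interval -0.17 to 0.58, adjusted p = 0.967 by limma), and 0.09 once library medians were set to 0. Under the one-way test of the study as run here, which does not pool the spread across genes, both Ctnnb1 and Lrp5 passed the unadjusted threshold. In all, 848 of 18810 genes passed it. The paper also lists Lrp5 among its decreased genes, under cellular development. An exon of Ulk4, at 3.95 to 4.64 RPKM, overlaps Ctnnb1 on the other strand, and the strand used in counting is not given in the sources used here. No other member shared exon sequence with an annotated gene.

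The secreted antagonists were of unequal abundance. Sfrp1 (ENSMUSG00000031548, chromosome 8 from 24521974 to 24560104, plus strand) was 18.1, 17.1 and 6.30 RPKM in Scx-/- replicates 1 to 3 and 19.3, 9.22 and 19.1 RPKM in Scx+/+. It varied most of the 8 genes, by 3.07 times between its highest and lowest library, and its lowest values were again those of the libraries that stood apart. The log2 fold change of -0.26 (95% interval -1.25 to 0.72, adjusted p = 0.972 by limma) changed sign to 0.22 without Scx-/- replicate 3. It was -0.61 without Scx+/+ replicate 2 and -0.13 without both.

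Frzb (ENSMUSG00000027004, chromosome 2 from 80252127 to 80287782, minus strand) was first described in cartilage. It was 1.62, 1.38 and 1.47 RPKM in Scx-/- replicates 1 to 3 and 0.875, 0.619 and 1.51 RPKM in the controls, from 93 to 335 reads per library. The Scx-/- libraries lay close together, and Scx+/+ replicate 3 reached into their range. For Frzb the log2 fold change was 0.61 (standard error 0.38, 95% interval -0.26 to 1.48, adjusted p = 0.967 by limma). Its unadjusted limma p of 0.147 was 0.0291 without Scx+/+ replicate 3, where the log2 fold change was 0.92, and 0.344 without Scx+/+ replicate 2, where it was 0.34.

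Dkk3 (ENSMUSG00000030772, chromosome 7 from 119259533 to 119302571, minus strand) belongs by sequence to the Dickkopf family, but unlike Dkk1 is not an established blocker of Lrp5 and Lrp6. It was 14.3, 24.8 and 15.4 RPKM in Scx-/- replicates 1 to 3 and 12.8, 10.6 and 13.4 RPKM in Scx+/+. Every Scx-/- library was above every control as deposited, with Scx-/- replicate 2 far above the rest, and the genotypes overlapped with library medians set to 0 or with exon length and GC corrected. Dkk3 had a log2 fold change of 0.52 (standard error 0.24, 95% interval -0.01 to 1.06, adjusted p = 0.967 by limma), or 0.41 with library medians set to 0. Its unadjusted limma p of 0.0545 was 0.0408 without Scx-/- replicate 1. Leaving out Scx-/- replicate 2 lowered it to 0.28 (unadjusted p = 0.157 by limma). That library also had the highest valve mesenchyme markers, at a mean of 0.51 on the log2 scale above their average. It was highest as well for erythroid (0.77), epicardial (0.44), macrophage (0.43) and smooth muscle markers (0.42). It was not highest for cardiomyocyte (-0.19), endothelial (-0.12) or glial and melanocyte markers (0.31). The sum of all 13 valve mesenchyme markers ran from 625 to 837 RPKM in Scx-/- and from 546 to 639 RPKM in Scx+/+. The sum of 8 epicardial markers ran from 25.5 to 38.8 RPKM and from 20.7 to 30.3 RPKM. Glial and melanocyte markers (6 genes) summed to 31.6 to 33.5 RPKM in Scx-/- and 24.5 to 30.1 RPKM in Scx+/+ without overlap, and 2 of them, Dct and Mlana, were called higher. The part of these cell types in the values of Dkk3 was not tested.

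**Figure D2:**
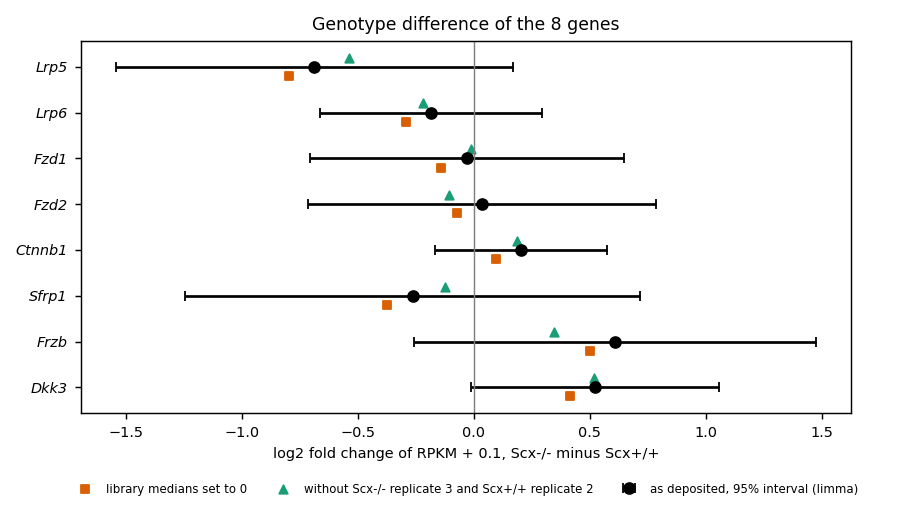
Log2 fold change of RPKM + 0.1 between Scx-/- and Scx+/+ libraries (horizontal axis) for the 8 genes. Black points with bars are limma estimates with their 95% interval, squares are the estimates with library medians set to 0, and triangles are those without Scx-/- replicate 3 and Scx+/+ replicate 2. Every interval includes 0, from -1.55 to 0.17 for Lrp5 and from -0.01 to 1.06 for Dkk3.

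Within each library, Sfrp1 was set against Frzb as a difference of log2(RPKM + 0.1). In Scx-/- replicates 1 to 3 the log2 ratio was 3.40, 3.54 and 2.02. In the controls it was 4.32, 3.70 and 3.57. The genotypes did not overlap, although the highest Scx-/- value lay next to the lowest control. The mean difference was -0.87 (exact permutation test, two-sided, p = 0.1, the smallest possible) and -0.39 without Scx-/- replicate 3. It was -0.58 with a pseudocount of 1 (exact permutation p = 0.4) and -0.83 with exon length and GC corrected (exact permutation p = 0.2). The exact permutation p-values of the 3 ratios were 0.2 (Lrp5 to Lrp6), 0.6 (Fzd1 to Fzd2) and 0.1 (Sfrp1 to Frzb), not adjusted. Adjusting them together could lower none of them. The sum of 8 antagonists (Sfrp1, Sfrp2, Sfrp5, Frzb, Dkk2, Dkk3, Wif1 and Sost) reached 47.4 ± 12.9 RPKM (SD, n = 3) in the null libraries. The control sum was 42.7 ± 11.0 RPKM (SD, n = 3), a difference within the SD. Dkk3 made up 38.3% ± 6.00 (SD, n = 3) of it in Scx-/- and 29.6% ± 5.04 (SD, n = 3) in Scx+/+, and Sfrp1 28.5% ± 11.2 and 36.4% ± 4.99.

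Lrp6, Fzd1, Fzd2 and Sfrp1 shared a pattern over the libraries that crossed the genotypes. For these 4 of the 8 genes, Scx-/- replicate 3 and Scx+/+ replicate 2 held the lowest values of all 6 libraries. This was also so for 28 of 61 other Wnt pathway genes averaging 1 RPKM or more (45.9%), and for 19.5% of all 13827 genes at that level. The pattern was picked out after its values were seen. After correcting each library for exon length and GC, it held for 3 of the 8 genes (Fzd1, Fzd2 and Sfrp1), for 16 of the 61 (26.2%) and for 11.7% of all genes. The part of muscle content in the lower Wnt receptor values was not tested. Lrp5, Ctnnb1, Frzb and Dkk3 did not follow this pattern.

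**Figure D3:**
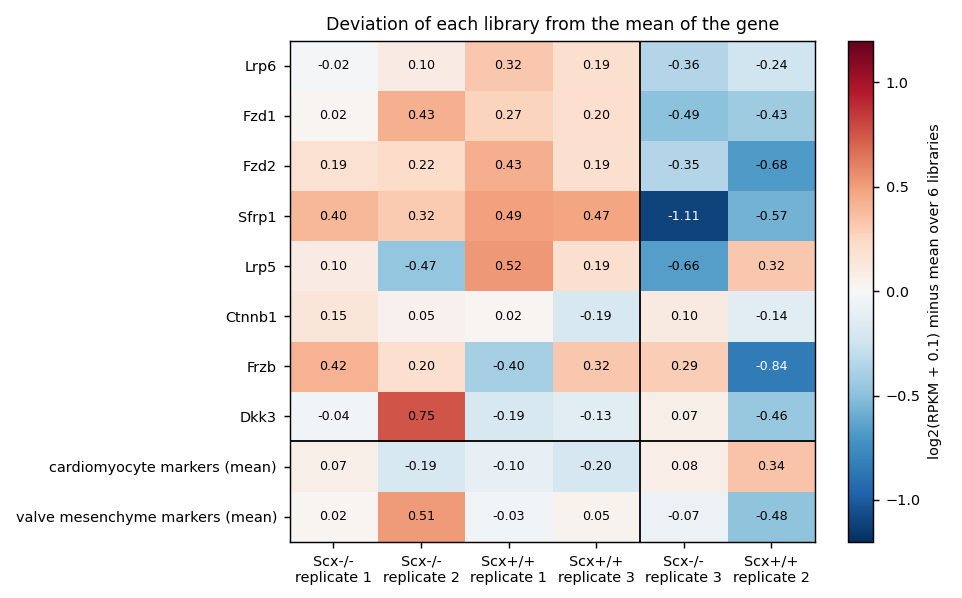
Deviation of log2(RPKM + 0.1) from the mean of each gene over the 6 libraries (color and printed value), with genes and the mean of 2 marker lists as rows and libraries as columns, the libraries that stood apart at the right. Lrp6, Fzd1, Fzd2 and Sfrp1 were below their mean in both right-hand columns, Sfrp1 by as much as -1.11 in Scx-/- replicate 3.

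Likeness between genes was measured as the root mean square difference of their log2 values over the 6 libraries after each gene's mean was subtracted. The member nearest to Lrp6 was Fzd1 (0.17), and that nearest to Fzd2 was also Fzd1 (0.17). Lrp5 had no close partner among the members, with Lrp6 nearest at 0.36. The nearest member was Fzd1 for Sfrp1 (0.34), Lrp6 for Ctnnb1 (0.29), Ctnnb1 for Dkk3 (0.34) and Dkk3 for Frzb (0.40). This measure is small also between genes that vary little, so the nearest member need not share a pattern. Ctnnb1 deviated by 0.15, 0.05 and 0.10 in Scx-/- replicates 1 to 3 and by 0.02, -0.14 and -0.19 in the controls. Lrp6 deviated by -0.02, 0.10 and -0.36 and by 0.32, -0.24 and 0.19. Among all genes averaging 1 RPKM or more, those close to Lrp6 included Chd3 (0.04) and Snap91 (0.05). Those nearest to Lrp5 were the predicted genes Gm12060 (0.07), Gm10382 (0.12) and Gm10401 (0.14).

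The rest of the pathway was examined with 8 lists of 122 genes in all, for which 93 identifiers were measured. By the same unadjusted p, 1 of the 93 was called in limma, against 3.89% of all genes. The median log2 fold change of the 93 was 0.06, and 52 were above 0. Among the ligands and the secretion machinery, 9 of 21 genes were measured and none was called, and the Wnt carrier Wls was the most abundant at a mean of 46.6 RPKM. Wnt5b, a ligand of the non-canonical branch, was 1.98, 1.11 and 0.701 RPKM in Scx-/- and 0.590, 0.459 and 0.583 RPKM in Scx+/+, higher without overlap (log2 fold change 0.98, adjusted p = 0.967 by limma). Wnt9a, a ligand of the endocardial cushions, was 0.511, 0.578 and 0.171 RPKM in Scx-/- against 0.167 RPKM in Scx+/+ replicate 3, with the other controls at the fill-in value of 0.0949 RPKM.

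Among the other Frizzled receptors and coreceptors, 1 of 13 identifiers was called. Fzd10, a Frizzled of low level here, carries 2 identifiers that overlap each other on chromosome 5, so reads could be split or shared between them and both values are uncertain. The identifier called, ENSMUSG00000089856, is annotated as a pseudogene. It was 0.551, 0.522 and 0.530 RPKM in Scx-/- and 0.123 RPKM in Scx+/+ replicate 1, with the other controls at the fill-in value (log2 fold change 1.64, adjusted p = 0.967 by limma), from 85 reads at most. The protein-coding identifier ENSMUSG00000081683 was 0.959, 0.510 and 0.613 RPKM against 0.246, 0.232 and 0.431 RPKM, also without overlap, with a log2 fold change of 0.97. Fzd4 was 6.32, 5.34 and 5.72 RPKM in Scx-/- and 6.94, 8.10 and 7.95 RPKM in Scx+/+, lower without overlap (log2 fold change -0.40, adjusted p = 0.967 by limma). The kinase-like coreceptor Ryk was the most abundant of this list at 23.1 RPKM.

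No gene was called in the remaining lists. They were the other secreted antagonists (8 identifiers), the R-spondins with their Lgr receptors and ubiquitin ligases (4), Dishevelled and the destruction complex (19), TCF factors with their partners (17), common target genes (13) and planar cell polarity (13). Their most abundant genes by mean RPKM were Igfbp4 (12.0), Lgr4 (13.8), Csnk1a1 (46.0), Aes (81.6), Lbh (60.8) and Daam1 (34.7). Without overlap between genotypes as deposited, Apcdd1, a membrane-bound inhibitor, was 2.85 to 3.65 RPKM in Scx-/- and 2.45 to 2.80 RPKM in Scx+/+. Lgr4, a receptor for R-spondins, was 14.0 to 14.6 RPKM against 13.1 to 13.7 RPKM. With library medians set to 0 the genotypes overlapped for Apcdd1 and Lgr4. Fbxw11, which marks β-catenin for degradation, was 15.0 to 18.7 RPKM in Scx-/- against 12.9 to 14.8 RPKM. The polarity cadherin Celsr1 was 0.396 to 0.480 RPKM in Scx-/- and 0.556 to 1.08 RPKM in Scx+/+. As deposited, 7 of the 93 identifiers were higher and 2 lower without overlap, against 7.19% and 2.31% of all genes.

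**Figure D4:**
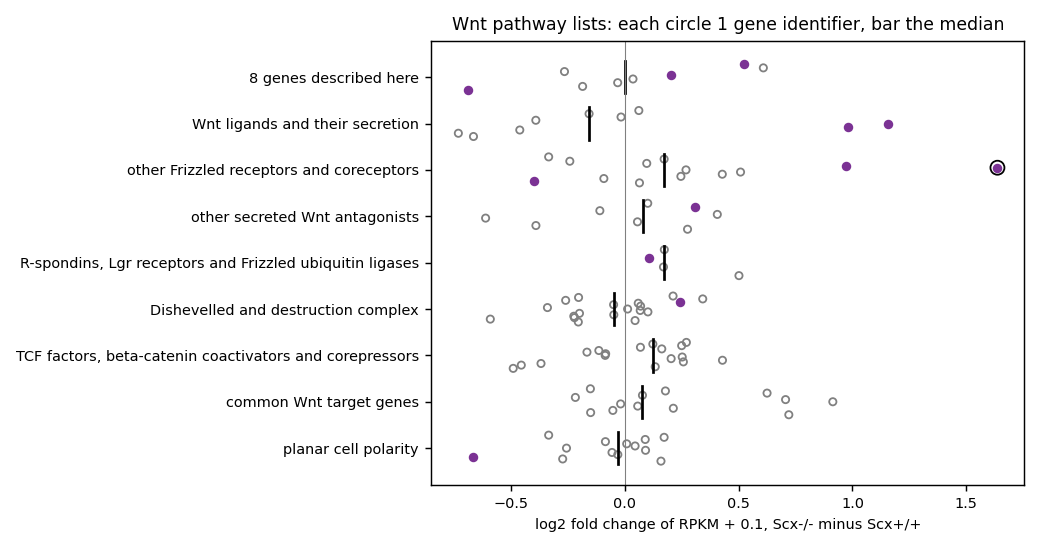
Log2 fold change of RPKM + 0.1, Scx-/- minus Scx+/+ (horizontal axis), for each identifier of the Wnt pathway lists. Filled circles are genes whose genotypes did not overlap as deposited. A ring marks the 1 called by the unadjusted p (a Fzd10 identifier, at 1.64), and bars are list medians. The 8 genes described here had a median of 0.00 and all 93 other identifiers a median of 0.06.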

How the data were processed

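RNA from dissected atrioventricular canal regions was sequenced in 6 libraries, 3 per genotype, grouped by the titles of the samples. Per the methods and labels, the authors aligned reads to mm9 with TopHat 1.4.1, counted them over Ensembl exons with easyRNASeq and deposited RPKM, which are not counts. Per the methods, genes under a read minimum in all libraries were dropped and the lowest values were set to a common fill-in, here 0.0949 RPKM.

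Symbols, coordinates, exon lengths and GC content came from the GENCODE annotation and genome of mm9, which held 18695 of the 18810 identifiers. Multiplying RPKM by exon length gave the depth of each library, with 98.5% to 98.6% of values under 1000 reads within 0.1 of a whole read. No count test was run.

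Genotypes were compared on log2(RPKM + 0.1) by limma 3.58.1 (R 4.3.3), with a trend of variance on level and no covariate, and p-values were adjusted over 18810 genes by the Benjamini-Hochberg method. Genes were called at an unadjusted p below 0.05, the threshold of the study. The litter of each embryo is not given in the sources used here. Within-library ratios were compared with an exact permutation test. Steps were tested on simulated data. Other steps used pandas 2.3.3, numpy 2.4.6 and scipy 1.17.1 under Python 3.11.15, and figures matplotlib 3.10.9.

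The members and lists were chosen with earlier results of these data known. Named are the 8 genes and, in each pathway list, the most abundant gene, genes called, genes averaging 1 RPKM or more without overlap, and the nearest genes by likeness, of which 1 is not reported here. Wnt5b, Wnt9a, Celsr1 and the second Fzd10 identifier were named after their values were seen. Alternatives were pseudocounts of 0.01 and 1, a mean of at least 1 RPKM, no trend, one-way ANOVA, quantile normalization, library medians set to 0, removal of a trend on exon length and GC content (splines, 5 degrees of freedom each), the replicate block and each library left out. Leaving out both libraries that stood apart was added after seeing the data.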

Additional observations from a re-analysis of the deposited data

How the results depend on the processing

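Between genotypes, 731 genes were called, and 1549 without Scx+/+ replicate 2 and 1587 without Scx+/+ replicate 2 and Scx-/- replicate 3 together, the latter added after seeing the data. With each library left out, the count ran from 539 to 1549. Of the 8 Wnt genes, 0 were called in limma as deposited. The count was 1 without an intensity trend and 1 with library medians set to 0 (Lrp5 in each), and 2 under one-way ANOVA both of the RPKM (Lrp5 at 0.0414 and Ctnnb1 at 0.0417) and of log2(RPKM + 0.1) (0.0489 and 0.0445), unadjusted. In the same fits 645, 646, 848 and 865 of all 18810 genes were called. The count among the 8 ran from 0 to 2 with each library left out, and no member was below an adjusted p of 0.611 in any fit. Setting library medians to 0 moved the median log2 fold change of all genes from 0.10 to -0.0045.

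Lrp5, Lrp6, Ctnnb1, Frzb and Dkk3 kept their sign in every alternative run, of which Lrp5, under a mean of 1 RPKM, had no value in 1. The log2 fold change of Fzd1 turned positive, at 0.21, 0.10 and 0.06, without Scx-/- replicate 3, Scx+/+ replicate 1 and Scx+/+ replicate 3 (range -0.25 to 0.21). That of Fzd2 turned negative, at -0.015 under ANOVA of the RPKM, -0.058 after quantile normalization, -0.073 with library medians set to 0, -0.0040 with the exon length and GC trend removed and -0.11 without the libraries that stood apart. With 1 library left out it ran from -0.29 to 0.26 and was negative without Scx-/- replicate 1, Scx-/- replicate 2 or Scx+/+ replicate 2. Sfrp1 ran from -0.61 to 0.22, positive without Scx-/- replicate 3. The difference in the ratio of Fzd1 to Fzd2 ran from -0.19 to 0.042 with each library left out. That of Lrp5 to Lrp6 ran from -0.69 to -0.34 (-0.17 with a pseudocount of 1, exact permutation p = 0.6) and that of Sfrp1 to Frzb from -1.15 to -0.39. The cause of these changes was not tested.

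Deviations from the genotype mean in libraries with the same number had correlations of 0.09, -0.22 and -0.19 over all genes averaging 1 RPKM or more. Such deviations sum to 0 within a genotype, so these values cannot show whether libraries were paired. The numbers were not taken as pairs. With the replicate block 573 genes were called and 0 of the 8. Lrp5 and Frzb rest on as few as 158 and 93 reads in a library, against 36978 for Ctnnb1.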
